A study of Mus musculus with 80 samples.

Results

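The comparison asked what an internal tandem duplication (ITD) in 1 copy of Flt3 does to the RNA of mouse hematopoietic progenitor cells (HPC) that are labelled as lacking the type I interferon receptor gene Ifnar. Its members were the 9 RNA-seq libraries of postnatal day 14 (P14) HPC labelled Ifnar -/-, of 80 libraries in the series. They were 5 libraries of Flt3 ITD/+ HPC and 4 libraries of Flt3 +/+ HPC, chosen by their titles alone. Both groups carry the same labelled Ifnar -/- genotype and the B6 background. A further 8 libraries of P14 HPC labelled Ifnar +/-, 4 with Flt3 ITD/+ and 4 with Flt3 +/+, served for the test of whether the ITD effect differed with Ifnar. The labels do not say which surface markers defined HPC, from which organ they came, how many mice gave a library, or how the Ifnar allele was made. The p-values therefore measure only the spread between these libraries, which may in part be technical.

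Flt3 encodes a receptor tyrosine kinase of early progenitors, and Flt3 ligand switches it on. The ITD lengthens the segment next to the membrane and leaves the kinase active without ligand. The active ITD receptor is known for strong phosphorylation of STAT5, a transcription factor that switches on feedback inhibitors such as Socs2 and Cish, and for signalling through the RAS-MAPK cascade, which has its own set of feedback genes (Dusp, Spry and Spred families). Type I interferon acts through Ifnar1 and Ifnar2, which switch on a large set of antiviral genes.

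In the HPC labelled Ifnar -/-, the ITD libraries held more RNA of the cytokine feedback genes Socs2 and Cish, of Ifitm1 and Slfn2, of the cell cycle inhibitor Cdkn1a and of the surface protein Cd48. They held less RNA of Gem, Dusp6, Etv5, Egr1, Ccnd1 and Postn. Few genes passed the test, and most of those that did changed by more than 1 on the log2 scale. Of 17464 genes tested with edgeR, 168 were called at a Benjamini-Hochberg adjusted p under 0.05, which is 0.962% of the genes. They were 113 genes higher in ITD/+ (0.647%) and 55 lower (0.315%). Of the 168 genes, 148 differed by more than 1 on the log2 scale, and the median over all genes tested was 0.00309. The libraries of both groups did not overlap for 167 of the 168 genes, and over all genes tested they did not overlap for 8.15%. The 15 genes per direction named below for the largest change had to show no overlap, so for them it adds no support. At an unadjusted p under 0.05 there were 2030 genes, 6.21% of all genes being higher and 5.42% lower, and DESeq2 called 419 (2.4%). Leaving out any 1 of the 9 libraries gave between 122 and 152 calls. These fits also held the Ifnar +/- libraries, and with only the 9 libraries fitted edgeR called 295 of 16607 genes tested.

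**Figure D1:**
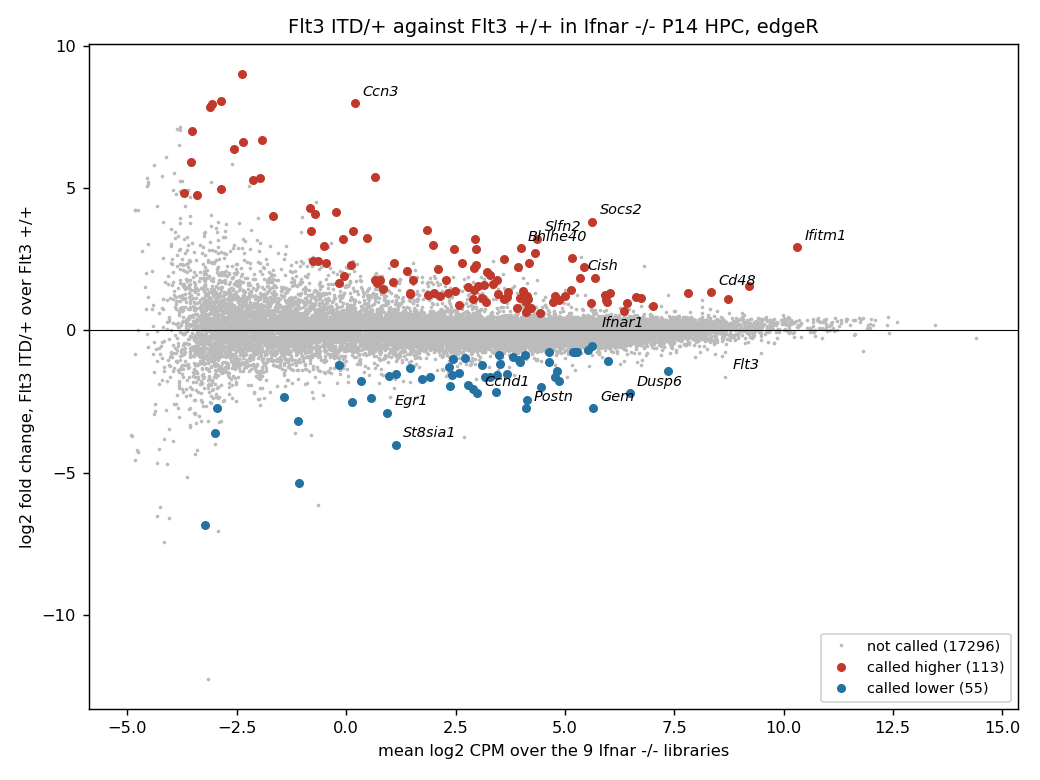
Log2 fold change of Flt3 ITD/+ over Flt3 +/+ (vertical) against the mean log2 CPM over the 9 Ifnar -/- libraries (horizontal). Each point is 1 of 17464 genes; the 113 genes called higher and the 55 called lower stand out from the grey points, and Flt3 and Ifnar1 lie among the grey points.

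Library totals ran from 59.4 to 69.5 M (mega) reads in the ITD/+ group and from 73.5 to 90.4 M reads in the +/+ group, so that the groups differed in depth. Values below are CPM, read counts scaled to a common library total with TMM factors, which compare a gene between libraries but not 1 gene with another. Ifnar1 had 46.4, 53.7, 51, 50.9 and 43.5 CPM in the ITD/+ libraries and 47.4, 53.4, 59.4 and 54.8 CPM in the +/+ libraries. In the libraries labelled Ifnar +/-, its CPM lay between 20.6 and 55.9, so that Ifnar1 RNA was no lower in the libraries labelled Ifnar -/-. A count over the whole gene does not check an allele that leaves a transcript, and all directions below are between labelled genotypes. A list of 70 tested interferon response genes did separate the labels. Its level, the mean log2 CPM over members, ran from 3.13 to 3.74 in the 9 libraries labelled Ifnar -/- and from 4.68 to 6.83 in the 8 labelled Ifnar +/-, with no overlap.

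Several libraries stood apart. On the third principal component of the 17 libraries, which held 10.4% of the variance, ITD/+ libraries 4 and 5 lay at -57.2 and -60.5, against -13.3 to 7.1 in ITD/+ libraries 1 to 3 and 22.6 to 41 in the +/+ libraries. The same 2 libraries were high in endothelial and stroma markers. The summed CPM of 10 endothelial markers was 186, 262, 213, 412 and 497 in ITD/+ libraries 1 to 5 and between 252 and 322 in the +/+ libraries. That of 10 stroma markers was 72.3, 146, 99.7, 656 and 1010 in ITD/+ libraries 1 to 5 and between 115 and 195 in the +/+ libraries. The summed CPM of 10 eosinophil genes was 208 in ITD/+ library 5 and at most 9.72 in the other ITD/+ libraries, against 2210 and 586 in +/+ libraries 1 and 2 and at most 8.39 in +/+ libraries 3 and 4. Defining markers of T cells (Cd3e), NK cells (Ncr1) and hepatocytes (Alb) had at most 1 read in any of the 9 libraries, whereas Cd34, a surface protein of progenitors, had between 870 and 1490 CPM in all of them. Other members of these lists were present. Cd3d had 25 reads over the ITD/+ and 19 over the +/+ libraries, Trac 4 and 26 reads, and Ahsg 16 and 3 reads, in that order of groups. The summed CPM of the 4 tested T and NK cell markers ran from 208 to 322 in ITD/+ and from 116 to 179 in +/+ libraries, without overlap, and most of it was Nkg7 (148 to 253 CPM in ITD/+ and 84.6 to 135 CPM in +/+ libraries) and Cd4. The level of the 4 tested hepatocyte markers, all with a positive log2 fold change, ran from 0.92 to 1.43 in ITD/+ and from -0.06 to 0.72 in +/+ libraries, also without overlap. No member of either list was called by edgeR, and 1 T and NK and 2 hepatocyte markers were higher at an unadjusted p under 0.05. The part of such RNA in the results was not tested. Igkc, the immunoglobulin kappa constant region, had 2431 reads over the ITD/+ libraries, 1784 of them in 1 library, and 4 reads over the +/+ libraries. Without ITD/+ libraries 4 and 5, 122 genes were called, 103 of them among the 168. Y-linked reads marked 4 of 5 ITD/+ libraries and 3 of 4 +/+ libraries, and with the other 2 libraries left out 104 genes were called, 94 of them among the 168. Both counts came from fits chosen after the values were seen. Fewer cells of a type and less RNA per cell cannot be told apart in such bulk libraries.

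Flt3 itself had 124, 351, 430, 315 and 128 CPM in the ITD/+ libraries and 506, 982, 913 and 908 CPM in the +/+ libraries. The groups did not overlap, with ITD/+ libraries 1 and 5 and +/+ library 1 lowest within their groups. The log2 fold change was -1.62 ± 0.54 (SE) and did not pass the edgeR test (adjusted p = 0.239). With only the 9 libraries fitted it passed, at an adjusted p of 0.0426. Kit, the stem cell factor receptor, had 539, 901, 685, 494 and 301 CPM in ITD/+ libraries and 840, 1150, 1030 and 1060 CPM in +/+ libraries, which overlapped, and it did not pass (log2 fold change -0.81 ± 0.52, edgeR adjusted p = 0.545). Ifnar2, the second subunit of the interferon receptor, had 13.5, 19.5, 33.2, 22.2 and 14 CPM in ITD/+ libraries and 22.4, 39, 39.1 and 31.6 CPM in +/+ libraries, with overlap (log2 fold change -0.69 ± 0.32, edgeR adjusted p = 0.42).

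Of 16 STAT5 targets and SOCS feedback genes, all tested, 3 rose in ITD/+ (Socs2, Cish and Id1), 2 fell (Ccnd1 and, just inside the threshold, Bcl6) and 11 were not called. The list's median log2 fold change was 0.6. Socs2, a feedback inhibitor of cytokine receptors, had the smallest p-value of all genes in this comparison. Socs2 had 160, 135, 170, 163 and 182 CPM in the ITD/+ libraries and 13, 11.5, 12 and 9.03 CPM in the +/+ libraries. Every ITD/+ library lay more than 10-fold above every +/+ library, and the fitted difference was 14.2-fold (log2 fold change 3.83 ± 0.24, edgeR adjusted p = 9.02e-08). Cish, a second feedback inhibitor of the same family, had 72.1, 96.9, 81.2, 60.7 and 59.8 CPM in ITD/+ libraries and 11.1, 27.4, 22.6 and 20.4 CPM in +/+ libraries. The groups were well apart, at 3.64-fold (log2 fold change 1.86 ± 0.26, edgeR adjusted p = 0.000713). Id1, an inhibitor of basic helix-loop-helix factors, averaged 18.3 CPM in ITD/+ and 4.43 CPM in +/+ libraries (log2 fold change 2.05 ± 0.33, edgeR adjusted p = 0.00235).

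The other members of that list moved less evenly. Pim1, a survival kinase, had 467, 438, 363, 308 and 266 CPM in ITD/+ libraries and 233, 198, 197 and 197 CPM in +/+ libraries. The groups did not overlap, yet Pim1 missed the threshold (log2 fold change 0.84 ± 0.21, edgeR adjusted p = 0.0673). It passed without ITD/+ library 5 (adjusted p = 0.0388), without ITD/+ libraries 4 and 5 (0.0304), with only the 9 libraries fitted (0.0251) and with DESeq2 (0.0047). Pim2 ran from 11.9 to 42.2 CPM in ITD/+ and from 6.35 to 9.34 CPM in +/+ libraries, also without overlap and also not called (edgeR adjusted p = 0.163). Il2ra, the alpha chain of the interleukin 2 receptor, ran from 0.607 to 1.31 CPM in ITD/+ libraries and from 0 to 0.201 CPM in +/+ libraries and was not called (edgeR adjusted p = 0.224). Socs3 ran from 0.916 to 2.3 CPM in ITD/+ and from 0.19 to 1.05 CPM in +/+ libraries, with overlap (edgeR adjusted p = 0.256). The remaining members Socs1, Pim3, Bcl2l1, Mcl1, Ccnd2, Ccnd3 and Osm overlapped between the groups, with edgeR adjusted p-values from 0.37 to 0.99. Bcl2l1, the gene of the survival protein BCL-XL, had a log2 fold change of -0.01 ± 0.25.

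**Figure D2:**
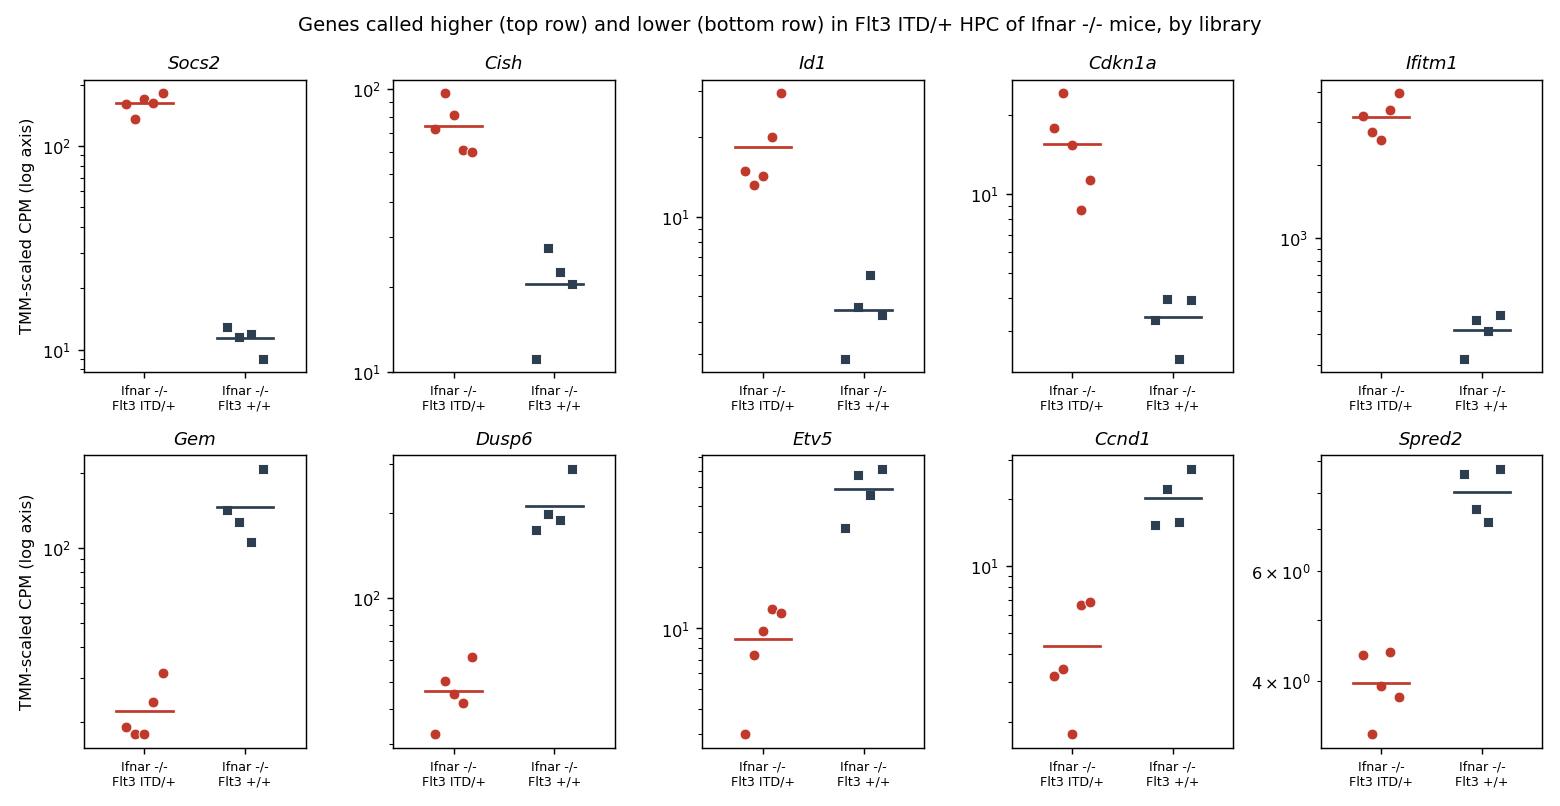
TMM-scaled CPM per library (points, log axes that differ between panels) and group mean (bars) in the 5 Flt3 ITD/+ and the 4 Flt3 +/+ libraries labelled Ifnar -/-. In all 10 panels the groups do not overlap; Socs2 lies between 135 and 182 CPM in ITD/+ and at most at 13 CPM in +/+, and Gem at most at 31.7 CPM in ITD/+ and at least at 106 CPM in +/+.

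Upstream sequence is shown for Cish, Clnk and Serpina3f, so that the STAT motif can be read beside the gene. They are only some of the called risers with an entry in the RefSeq promoter table (build GRCm38.p6). The motif searched was TTCNNNGAA, the palindrome that STAT dimers such as STAT5 bind, which reads alike on both strands. The window was the 250 bases before an annotated start. Capitals mark the motif, and each sequence runs 5′ to 3′ on the strand of its gene.
Cish, chr9:107296409-107296658, plus strand: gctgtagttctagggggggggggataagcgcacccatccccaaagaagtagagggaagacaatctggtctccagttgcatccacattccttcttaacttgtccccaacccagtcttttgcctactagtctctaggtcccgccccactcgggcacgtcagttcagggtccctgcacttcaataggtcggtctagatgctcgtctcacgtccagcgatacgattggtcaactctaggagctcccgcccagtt
Clnk, chr5:38876694-38876943, minus strand: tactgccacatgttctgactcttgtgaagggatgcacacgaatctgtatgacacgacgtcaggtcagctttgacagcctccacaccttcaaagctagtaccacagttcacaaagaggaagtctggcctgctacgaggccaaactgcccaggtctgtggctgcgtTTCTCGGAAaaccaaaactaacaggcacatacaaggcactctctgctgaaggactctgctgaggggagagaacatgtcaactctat
Serpina3f, chr12:104214294-104214543, plus strand, the farther upstream of 2 windows: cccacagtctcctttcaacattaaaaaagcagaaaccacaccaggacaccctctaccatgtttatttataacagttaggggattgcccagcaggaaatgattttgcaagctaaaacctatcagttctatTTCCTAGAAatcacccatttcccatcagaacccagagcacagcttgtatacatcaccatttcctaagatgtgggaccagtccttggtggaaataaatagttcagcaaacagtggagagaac
Clnk and Serpina3f each hold 1 match in these windows, and the Cish window holds none. The genes shown do not stand for all named risers. Il18r1 also held matches, whereas Ifitm1, Slfn2, Cdkn1a and Cd48 were among those that held none. The named fallers Bcl6 and Sytl4 held matches too. Among the 84 called risers with an entry, 15 had a match (17.9%), as did 6 of 43 called fallers (14%), against 7.31% of the 11492 tested genes with an entry. These shares are descriptions of these letters in these windows and no test was made of them.

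Of 12 tested MAPK feedback genes, 3 fell in ITD/+ (Dusp6, Etv5 and Spred2), 1 rose (Dusp5) and 8 were not called, with a median log2 fold change of -1.38. There were 9 of the 12 lower at an unadjusted p under 0.05. Dusp6, a phosphatase that switches off ERK, had 32.5, 50.2, 45.3, 42.2 and 61.5 CPM in ITD/+ libraries and 174, 199, 189 and 288 CPM in +/+ libraries. All ITD/+ libraries lay below all +/+ libraries, and Dusp6 was 4.59-fold lower (log2 fold change -2.2 ± 0.29, edgeR adjusted p = 0.000367). Etv5, an ETS factor induced by ERK, had 3, 7.42, 9.69, 12.5 and 11.9 CPM in ITD/+ libraries and 31.2, 57, 45.3 and 61.4 CPM in +/+ libraries (log2 fold change -2.45 ± 0.4, edgeR adjusted p = 0.00258). Spred2, an inhibitor of RAS signalling, was 2.02-fold lower, at a mean of 3.96 CPM in ITD/+ and 8.01 CPM in +/+ libraries (edgeR adjusted p = 0.00324). Dusp5, a nuclear ERK phosphatase, went the other way, with 9.04 to 11.4 CPM in ITD/+ and 4.54 to 5.76 CPM in +/+ libraries (log2 fold change 1.11 ± 0.18, edgeR adjusted p = 0.00299).

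The uncalled members of the MAPK list were mostly lower without passing. Spry2, a receptor tyrosine kinase inhibitor, ran from 12.9 to 24 CPM in ITD/+ libraries and from 41.4 to 78.9 CPM in +/+ libraries, without overlap (log2 fold change -1.49 ± 0.43, edgeR adjusted p = 0.143). Spry1 ran from 0.802 to 1.77 CPM in ITD/+ and from 2.19 to 3.2 CPM in +/+ libraries (edgeR adjusted p = 0.0677), and Spred1 from 13.1 to 14.6 CPM in ITD/+ and from 16.3 to 24.4 CPM in +/+ libraries (edgeR adjusted p = 0.0758). Dusp4, Spry4, Spred3 and Fosl1 had negative log2 fold changes with edgeR adjusted p-values from 0.176 to 0.565. Ier3, an immediate early gene, overlapped between the groups (edgeR adjusted p = 0.631).

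Gem, a small GTP-binding protein, had 19.1, 17.9, 17.9, 24.2 and 31.7 CPM in ITD/+ libraries and 142, 127, 106 and 208 CPM in +/+ libraries. It was 6.59-fold lower, with every ITD/+ library below every +/+ library (log2 fold change -2.72 ± 0.27, edgeR adjusted p = 1.39e-05). Egr1, an immediate early zinc finger factor and the called member of 12 tested immediate early genes, had 0.954, 0.404, 0.621, 1.22 and 0.888 CPM in ITD/+ libraries and 5.26, 5.53, 3.85 and 9.57 CPM in +/+ libraries (log2 fold change -2.89 ± 0.33, edgeR adjusted p = 6.71e-05). Rgs1, which shortens G protein signalling, averaged 12.3 CPM in ITD/+ and 48.5 CPM in +/+ libraries (edgeR adjusted p = 0.000761). Rasgrp3, a RAS and RAP activator, averaged 6.11 CPM in ITD/+ and 19.1 CPM in +/+ libraries (edgeR adjusted p = 0.00838). The ATP-gated channel P2rx7 averaged 16.9 CPM in ITD/+ and 51.8 CPM in +/+ libraries (edgeR adjusted p = 0.00407). Tnip3, an NF-kB inhibitor, ran from 15.9 to 17.8 CPM in ITD/+ libraries and from 48 to 70.4 CPM in +/+ libraries (edgeR adjusted p = 1.41e-05).

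Of 18 tested G1 cyclins and CDK inhibitors, Cdkn1a rose, Ccnd1 fell and 16 were not called. Cdkn1a, which encodes the CDK inhibitor p21, had 17.8, 24.3, 15.4, 8.72 and 11.3 CPM in ITD/+ libraries and 3.31, 3.99, 2.35 and 3.95 CPM in +/+ libraries. The difference was 4.56-fold, with no overlap (log2 fold change 2.19 ± 0.27, edgeR adjusted p = 0.000121). Ccnd1, which encodes cyclin D1, had 3.19, 3.43, 1.75, 6.65 and 6.86 CPM in ITD/+ libraries and 15.2, 22.1, 15.7 and 27.3 CPM in +/+ libraries (log2 fold change -2.2 ± 0.36, edgeR adjusted p = 0.00284). Ccnd2 and Ccnd3, the other D cyclins, had log2 fold changes of -0.08 ± 0.14 and -0.03 ± 0.19. Among 24 S phase genes and 24 G2/M genes none was called by edgeR. By unadjusted p under 0.05, 1 S phase gene was higher and no gene of either list was lower, and the medians were -0.04 for S phase and -0.15 for G2/M.

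Cd48, a SLAM family protein of hematopoietic cells, had 490, 564, 429, 462 and 534 CPM in ITD/+ libraries and 189, 188, 213 and 194 CPM in +/+ libraries. Both groups were tight, and Cd48 was 2.53-fold higher (log2 fold change 1.34 ± 0.15, edgeR adjusted p = 6.14e-05). It was the 1 called member of 9 tested SLAM family genes; Slamf1 (CD150), used beside Cd48 to sort stem and progenitor cells, ran from 2.76 to 6.42 CPM in ITD/+ and from 5.98 to 7.59 CPM in +/+ libraries (edgeR adjusted p = 0.433). Il18r1, a chain of the interleukin 18 receptor, ran from 10.7 to 16.6 CPM in ITD/+ libraries (mean 13.1) and had 2.12, 2.95, 2.61 and 2.47 CPM in +/+ libraries (log2 fold change 2.37 ± 0.24, edgeR adjusted p = 1.41e-05). Clec10a, a lectin of macrophages and dendritic cells, averaged 46.7 CPM in ITD/+ and 7.05 CPM in +/+ libraries (log2 fold change 2.73 ± 0.26, edgeR adjusted p = 7.89e-06).

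Adgre1, which encodes the macrophage antigen F4/80, had 14.7, 20, 9.81, 9.67 and 15.1 CPM in ITD/+ libraries and 1.54, 2.84, 1.39 and 1.79 CPM in +/+ libraries (log2 fold change 2.87 ± 0.26, edgeR adjusted p = 5.01e-06). It was the 1 called member of 14 tested macrophage markers. The summed CPM of that list ran from 106 to 472 in ITD/+ libraries, highest in libraries 4 and 5, and from 158 to 178 in +/+ libraries. The complement genes C1qa and C1qc, picked from this list after their values were seen, lay at most at 0.527 CPM in all 9 libraries. The summed CPM therefore came from other members of the list. Adgre1 itself was higher in ITD/+ libraries 1 to 3 than in every +/+ library. The part of macrophage RNA in its values was not tested.

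Bhlhe40, a helix-loop-helix repressor, had 36.1, 49.9, 42.7, 32.1 and 39.5 CPM in ITD/+ libraries and 4.7, 6.59, 7.55 and 2.73 CPM in +/+ libraries (log2 fold change 2.89 ± 0.33, edgeR adjusted p = 6.05e-05). Clnk, an adaptor of immune receptor signalling, averaged 18.2 CPM in ITD/+ and 4.74 CPM in +/+ libraries (edgeR adjusted p = 0.000608). Serpina3f, a serine protease inhibitor, averaged 95.7 CPM in ITD/+ and 26.4 CPM in +/+ libraries (edgeR adjusted p = 0.000235); its value is uncertain because a read may fit several Serpina3 genes of almost the same sequence. Myl10 (a myosin light chain) was 4.69-fold higher in ITD/+ (edgeR adjusted p = 0.00049), and Cox4i2 (a subunit isoform of cytochrome c oxidase) was 5.15-fold higher (edgeR adjusted p = 0.00456).

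Postn, which encodes the matrix protein periostin, had 7.3, 4.83, 8.34, 8.78 and 9.21 CPM in ITD/+ libraries and 39.8, 45.8, 46.8 and 71.7 CPM in +/+ libraries (log2 fold change -2.73 ± 0.3, edgeR adjusted p = 3.64e-05). Postn was the 1 called member of 10 tested stroma markers and did not follow the summed level of that list, which was highest in ITD/+ libraries 4 and 5. Ccr9, a chemokine receptor of lymphoid progenitors, had 5.83, 4.66, 6.6, 4.58 and 6 CPM in ITD/+ libraries and 28, 19, 25 and 26.5 CPM in +/+ libraries (log2 fold change -2.15 ± 0.34, edgeR adjusted p = 0.00195). Osgin1, an oxidative stress gene, averaged 18.7 CPM in ITD/+ and 50 CPM in +/+ libraries (edgeR adjusted p = 0.00689). Epb41l3, a membrane skeleton protein, averaged 6.01 CPM in ITD/+ and 13.8 CPM in +/+ libraries (edgeR adjusted p = 0.00447).

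Some calls rested on the full set of libraries. Angpt1, a niche growth factor and the 1 called member of 24 HSC genes, ran from 75.3 to 134 CPM in ITD/+ and from 261 to 320 CPM in +/+ libraries without overlap (edgeR adjusted p = 0.0267), yet left out 1 at a time, every library but ITD/+ 2 took the call away, at adjusted p-values up to 0.0825. The transcriptional repressor Bcl6 ran from 0 to 0.658 CPM in ITD/+ and from 1.49 to 2.28 CPM in +/+ libraries (edgeR adjusted p = 0.0495), and every library but ITD/+ 5 took its call away (up to 0.119). The chromatin organizer Satb1, one of the 2 called members of 26 lymphoid genes beside Ccr9, ran from 22.8 to 33.9 CPM in ITD/+ and from 43.3 to 60.7 CPM in +/+ libraries (edgeR adjusted p = 0.0391), and every library but ITD/+ 3 took its call away (up to 0.142). The glycolytic enzyme Hk2, the 1 called of 17 glycolysis genes, ran from 13.7 to 22.6 CPM in ITD/+ and from 28.4 to 53 CPM in +/+ libraries (edgeR adjusted p = 0.0246) and lost its call without ITD/+ library 1, 3 or 5 or +/+ library 3 or 4 (up to 0.129).

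The interleukin 33 receptor Il1rl1 ran from 0.0987 to 0.262 CPM in ITD/+ and from 0.453 to 1.32 CPM in +/+ libraries (edgeR adjusted p = 0.0389) and lost its call without any library other than ITD/+ 3 or +/+ 2 (up to 0.13). With Il18r1 and Ccr9 it made 3 called genes among 21 tested cytokine and chemokine receptors. Epha7, an ephrin receptor, was 3.14-fold lower in ITD/+ (edgeR adjusted p = 0.032) and kept its call only without ITD/+ library 2 or 3 (otherwise up to 0.105). Sytl4, a vesicle protein, was 2.94-fold lower (edgeR adjusted p = 0.0187) and lost its call without ITD/+ library 1 or 4 or +/+ library 2 or 4 (up to 0.0708). Chil5, a chitinase-like gene, was 2.87-fold lower (edgeR adjusted p = 0.0091) and lost its call without +/+ library 4 (adjusted p = 0.0563).

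Among risers, Mboat2, a lysophospholipid acyltransferase, was 3.41-fold higher in ITD/+ (edgeR adjusted p = 0.0152) and lost its call without +/+ library 1 (0.067). Ltf, the neutrophil granule gene lactoferrin and the 1 called of 8 neutrophil markers, ran from 12.1 to 20.7 CPM in ITD/+ and from 3.74 to 8.05 CPM in +/+ libraries (edgeR adjusted p = 0.0123) and lost its call without +/+ library 1 or 3 (up to 0.0637). The neutrophil genes Camp and Retnlg had 2 reads each over the ITD/+ libraries and 29 and 27 reads over the +/+ libraries. All 27 reads of Retnlg lay in 1 +/+ library, and 14 of the 29 reads of Camp lay in 1. Hoxb7, the 1 called of 17 Hox genes, had 0.111, 0.0841, 0.0138, 0.616 and 0.625 CPM in ITD/+ libraries and 0.0112, 0, 0 and 0 CPM in +/+ libraries. It was highest in ITD/+ libraries 4 and 5, those high in endothelial and stroma markers, and it was not called without them (edgeR adjusted p = 0.202). It also lost its call without any 1 of the 4 +/+ libraries (edgeR adjusted p = 0.0192 with all libraries, up to 0.0923 without 1 of them).

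A last group of fragile risers went with ITD/+ libraries 4 and 5, which were high in endothelial and stroma markers. Tspan7, a tetraspanin, had 40, 40.4, 44, 130 and 195 CPM in ITD/+ libraries and 15.2, 15.3, 18.4 and 12.1 CPM in +/+ libraries (edgeR adjusted p = 0.0259). Timp3, an inhibitor of metalloproteinases, had 16.1, 20.5, 16.2, 57.8 and 58.1 CPM in ITD/+ libraries and 8.8, 5.93, 9.53 and 4.42 CPM in +/+ libraries (edgeR adjusted p = 0.0399). Id2, an inhibitor of helix-loop-helix factors and the 1 called of 19 myeloid transcription factors, had 39, 36.5, 31.8, 53.7 and 83.7 CPM in ITD/+ libraries and 28.4, 13.3, 22.6 and 20.8 CPM in +/+ libraries (edgeR adjusted p = 0.046). For all 3 genes the 2 highest libraries were ITD/+ 4 and 5, and ITD/+ libraries 1 to 3 also lay above every +/+ library. Tspan7 and Timp3 lost their calls without ITD/+ library 4 or 5 or any 1 +/+ library (adjusted p-values up to 0.11 and 0.156), and Id2 without ITD/+ library 4 or 5 or +/+ library 2, 3 or 4 (up to 0.176). The part of the endothelial and stroma RNA in these values was not tested.

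Of 70 tested interferon response genes, 3 rose in ITD/+ (Slfn2, Ifitm1 and Ifitm3), none fell and 67 were not called. The list's median log2 fold change was -0.3, with 18 members positive and 52 negative, and at an unadjusted p under 0.05 13 members were lower and 3 higher. Ifitm1, an interferon-induced membrane protein, had 3180, 2730, 2540, 3370 and 3960 CPM in ITD/+ libraries and 317, 459, 414 and 481 CPM in +/+ libraries. It was 7.56-fold higher, with no overlap (log2 fold change 2.92 ± 0.25, edgeR adjusted p = 3.88e-06). Slfn2, a Schlafen family gene of lymphoid and myeloid cells, had 59.1, 56.1, 40.3, 61 and 69.8 CPM in ITD/+ libraries and 3.67, 7.17, 7.72 and 5.85 CPM in +/+ libraries (9.39-fold, log2 fold change 3.23 ± 0.31, edgeR adjusted p = 9.39e-06). Ifitm3 had 619, 548, 522, 632 and 693 CPM in ITD/+ libraries and 217, 339, 255 and 312 CPM in +/+ libraries (edgeR adjusted p = 0.031), and only without ITD/+ library 2 or 3 did it keep its call (otherwise up to 0.119).

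Members of the list outside the 3 called, picked after their values were seen, included Irf7, Isg15 and Ifit1. Irf7, the interferon-inducible factor that amplifies the response, had 11, 12, 12.2, 11.1 and 16.7 CPM in ITD/+ libraries and 13.5, 19.3, 15 and 15 CPM in +/+ libraries (log2 fold change -0.32 ± 0.32, edgeR adjusted p = 0.708). Isg15, a ubiquitin-like protein, ran from 2.4 to 5.69 CPM in ITD/+ and from 3.26 to 6.11 CPM in +/+ libraries (edgeR adjusted p = 0.873). Ifit1, an antiviral RNA-binding protein, ran from 0.822 to 1.66 CPM in ITD/+ and from 3.24 to 5.8 CPM in +/+ libraries, without overlap and not called (edgeR adjusted p = 0.0837). Of 21 MHC class I presentation genes, 10 MHC class II genes and 7 interferon receptor and kinase genes, edgeR called none. At an unadjusted p under 0.05, 1 higher and 2 lower, 2 higher and 0 lower, and 0 higher and 2 lower were found in these lists. The median log2 fold changes were -0.19 for MHC class I, 0.26 for MHC class II and -0.32 for the receptors and kinases.

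**Figure D3:**
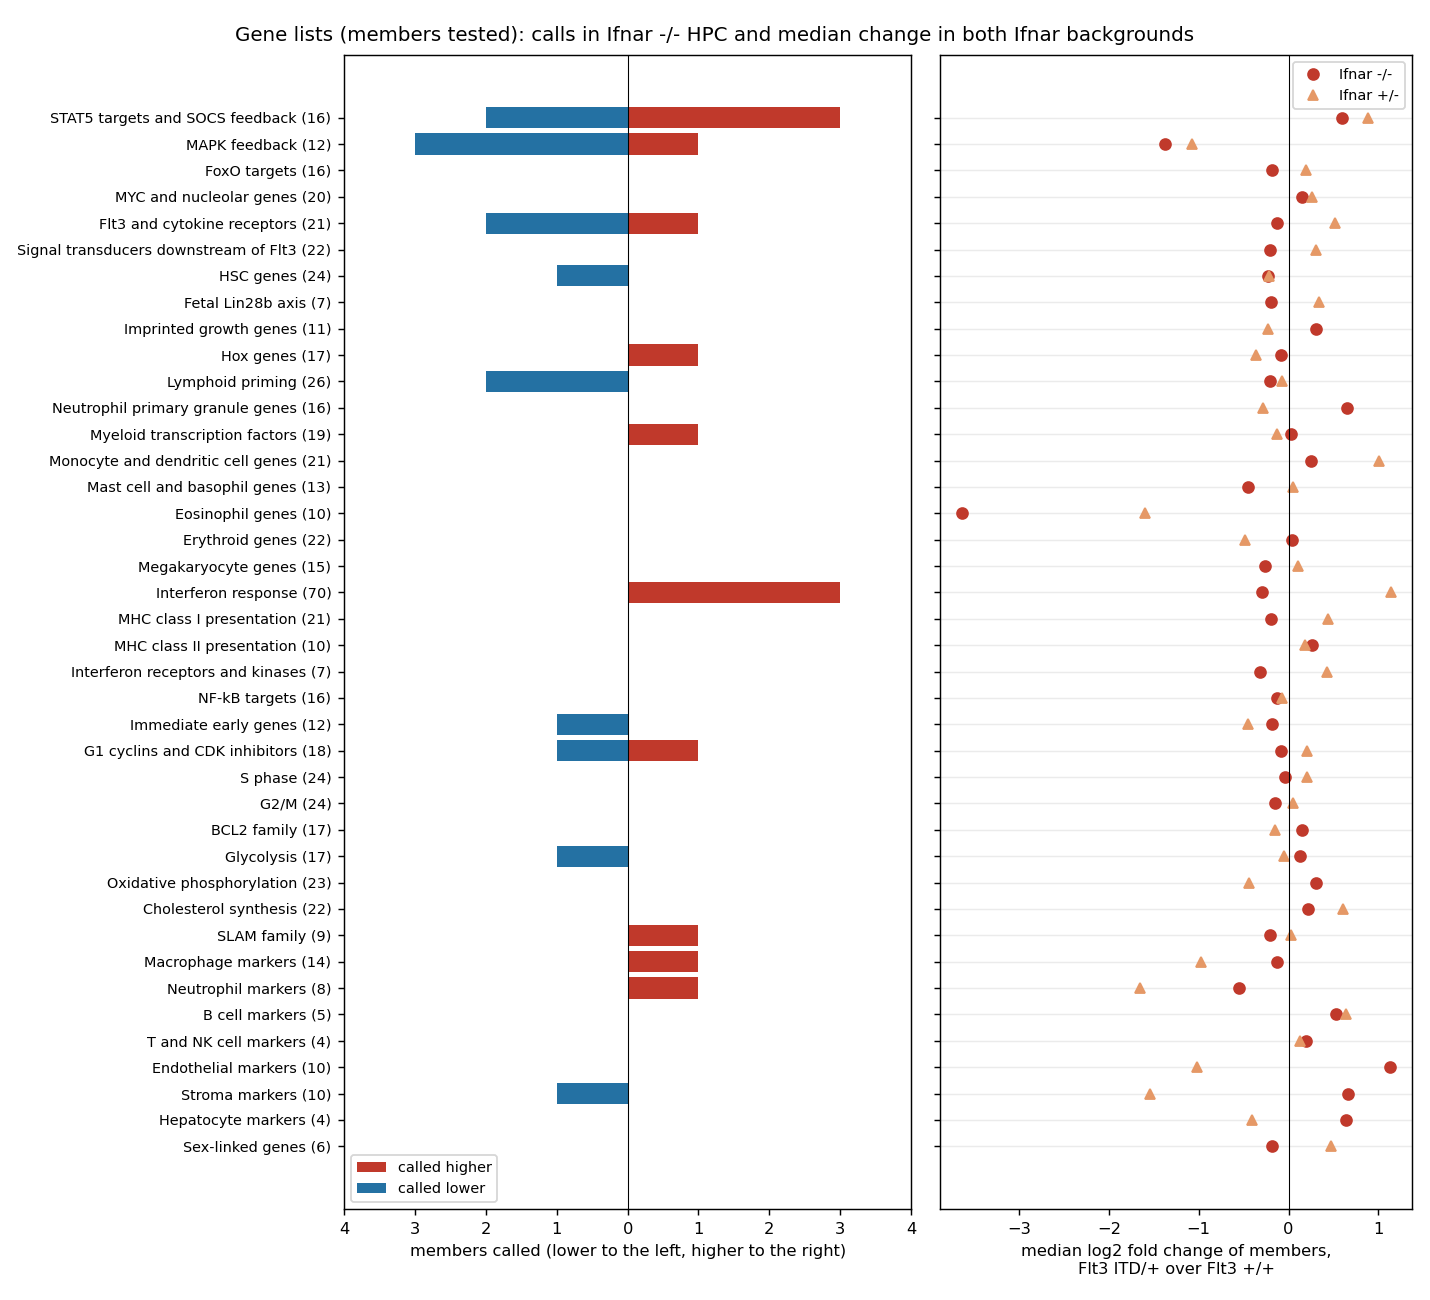
Left, the number of members of each gene list called higher or lower in Flt3 ITD/+ HPC labelled Ifnar -/-, with the number tested in brackets. Right, the median log2 fold change of the members in both Ifnar backgrounds; the interferon response list lies at -0.3 in Ifnar -/- and at 1.14 in Ifnar +/-, and the MAPK feedback list below -1 in both.

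Differentiation lists without a call included the neutrophil primary granule list (16 genes, median log2 fold change 0.65), 21 monocyte and dendritic cell genes (0.25), 22 erythroid genes (0.04), 15 megakaryocyte genes (-0.26) and 13 mast cell and basophil genes (-0.45). Of the 16 genes of the neutrophil primary granule list 5 were higher and none lower at an unadjusted p under 0.05. Their summed CPM ran from 2510 to 3550 in ITD/+ and from 2040 to 2380 in +/+ libraries, without overlap. Their mean log2 CPM overlapped (4.68 to 5.51 in ITD/+ and 3.51 to 5.73 in +/+ libraries). That list also holds genes of proteins outside the granules, such as Calr, Clec12a and Igsf6, and Nkg7, which the T and NK list holds too. The summed CPM is therefore not that of granule genes alone. No eosinophil gene was called either, although 7 of 10 were lower at an unadjusted p under 0.05 and their median was -3.64; +/+ libraries 1 and 2 held most of that RNA. The granule gene Mpo had 420, 738, 499, 285 and 268 CPM in ITD/+ libraries and 466, 224, 237 and 113 CPM in +/+ libraries, with overlap (edgeR adjusted p = 0.639). The HSC list had a median of -0.23, and 7 of its 24 members were lower at an unadjusted p under 0.05. Hlf, a stem cell transcription factor, ran from 212 to 311 CPM in ITD/+ and from 330 to 468 CPM in +/+ libraries, without overlap, and was not called (log2 fold change -0.64 ± 0.18, edgeR adjusted p = 0.122). No member of the lists of signal transducers below Flt3, FoxO targets, MYC and nucleolar genes, BCL2 family, NF-kB targets, oxidative phosphorylation or cholesterol synthesis was called by edgeR. At an unadjusted p under 0.05 each of these lists had at most 4 members in either direction. Over all genes tested 6.21% were higher and 5.42% lower, and 4 members of a list of 22 are a larger share than either. The 22 signal transducers had 4 lower and 0 higher, and 18 of them had a negative log2 fold change. The 22 cholesterol synthesis genes had 4 higher and 0 lower, and 17 of them had a positive one.

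The same ITD contrast in HPC labelled Ifnar +/- rests on other libraries in both groups and shares none with the contrast above. It called 846 genes (4.84%), 457 higher (2.62%) and 389 lower (2.23%). Of the 168 genes called in Ifnar -/-, 102 were also called in Ifnar +/-, 67 higher and 35 lower in both and none in opposite directions. These were 60.7% of the calls in Ifnar -/- and 12.1% of those in Ifnar +/-. Of the 168 genes, 155 had the same sign in both. Over the 168 genes, which are not independent, Pearson's r of the log2 fold changes was 0.87. The 168 genes were selected by their change in Ifnar -/-, and neither value was computed over all genes tested. Neither therefore measures how alike the backgrounds were over all genes. Socs2 differed by 3.83 on the log2 scale in Ifnar -/- and by 3.96 in Ifnar +/-, and Cish by 1.86 in Ifnar -/- and 1.92 in Ifnar +/-. Gem differed by -2.72 in Ifnar -/- and by -3.5 in Ifnar +/-, and Ccnd1 by -2.2 in Ifnar -/- and -2.42 in Ifnar +/-. For Cdkn1a the values were 2.19 in Ifnar -/- and 2.31 in Ifnar +/-. Other called genes were less alike. Angpt1 differed by -1.42 in Ifnar -/- and -0.13 in Ifnar +/-, Hk2 by -1.11 and 0.19, and Satb1 by -0.76 and 0.2. The edgeR test of the difference called none of these 3. Of the 66 genes called in Ifnar -/- alone, 45 had an unadjusted p under 0.05 in that test, against 29.7% of all genes tested.

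**Figure D4:**
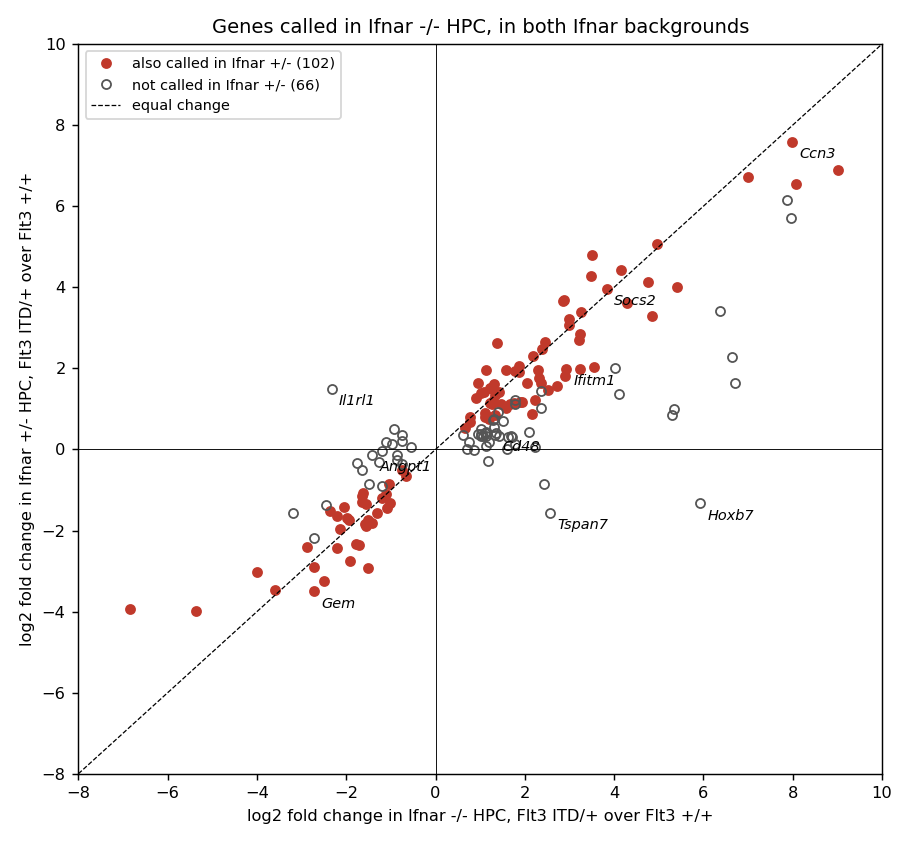
Log2 fold change of Flt3 ITD/+ over Flt3 +/+ in HPC labelled Ifnar -/- (horizontal) and Ifnar +/- (vertical) for the 168 genes called in Ifnar -/-. Filled points are the 102 genes also called in Ifnar +/-; 155 of the 168 genes have the same sign in both, and Tspan7, Hoxb7 and Il1rl1 are among those with opposite signs.

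The group labelled Ifnar +/- and Flt3 +/+ was uneven, which bears on every comparison with it. It also bears on the Ifnar -/- contrast, because the joint fit of 17 libraries estimated 1 spread per gene from all groups. With the 9 Ifnar -/- libraries fitted alone, that contrast called 295 genes rather than 168. The part of this group in that difference was not tested. Flt3 had 111, 1050, 132 and 169 CPM in its 4 libraries, and on the first principal component libraries 1, 3 and 4 lay between 48.8 and 90.7 and library 2 at -24.3. Without library 2 the Ifnar +/- contrast called 5804 genes, without library 3 it called 282 and without library 4 it called 345. Leaving out ITD/+ library 1, 2 or 3 gave 328, 366 or 264 calls, and leaving out ITD/+ library 4 gave 452.

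The difference of the ITD effects, Ifnar -/- minus Ifnar +/-, was called by edgeR for 2 genes (0.0115%), both with a more negative effect in Ifnar -/-. At an unadjusted p under 0.05 there were 5190 genes (29.7%), and DESeq2 called 2534, of which 1420 were higher (8.13%) and 1114 lower (6.38%). Leaving out 1 library moved the edgeR count between 0 and 5592, and the 5592 came without library 2 of the Ifnar +/-, Flt3 +/+ group. Bcl2, the founding survival gene of its family, had 9.33, 15.1, 11.5, 13.3 and 9.7 CPM in Ifnar -/-, ITD/+ libraries and 18.7, 15.6, 15.3 and 16.6 CPM in Ifnar -/-, +/+ libraries. In Ifnar +/- it ran from 26.3 to 41.2 CPM in ITD/+ libraries and had a median of 14.3 CPM in +/+ libraries, without overlap. Its ITD effect was -0.49 in Ifnar -/- and 1.19 in Ifnar +/-, and their difference was -1.67 (edgeR adjusted p = 0.0331). Nlrc5, the transactivator of MHC class I genes, had 3.87, 3.58, 2.54, 2.67 and 1.86 CPM in Ifnar -/-, ITD/+ libraries and 12.5, 8.19, 3.23 and 6.47 CPM in Ifnar -/-, +/+ libraries. In Ifnar +/- it averaged 30.3 CPM in ITD/+ and 8.49 CPM in +/+ libraries. Its ITD effect was -1.39 in Ifnar -/- and 1.83 in Ifnar +/-, and their difference was -3.22 (edgeR adjusted p = 0.0413). Nlrc5 was singled out after its values were seen. Both calls were lost without library 3, 4 or 5 of Ifnar -/-, ITD/+, without library 1, 2 or 4 of Ifnar -/-, +/+, without library 3 of Ifnar +/-, ITD/+ and without library 3 or 4 of Ifnar +/-, +/+. That of Nlrc5 was also lost without library 4 of Ifnar +/-, ITD/+ or library 1 of Ifnar +/-, +/+. The adjusted p-values over these fits reached 0.101 for Bcl2 and 0.128 for Nlrc5.

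The interferon response list held different counts in the 2 backgrounds. In Ifnar -/- it had 3 risers, none lower and a median log2 fold change of -0.3, against 31 risers, none lower and a median of 1.14 in Ifnar +/-. In Ifnar +/- the number of risers depended on single libraries. It was 41, 16, 8 and 13 without ITD/+ library 1, 2, 3 or 4, and 11, 45, 9 and 16 without +/+ library 1, 2, 3 or 4, with none lower and a median between 0.96 and 1.37 in each fit that left out 1 library. The test of the difference called none of the 70 by edgeR. At an unadjusted p under 0.05 it gave 49 of the 70, against 29.7% of all genes tested. Of the 49, 47 had a more negative effect in Ifnar -/- and 2 a more positive one. DESeq2 called 35 more negative and 2 more positive, against 6.38% and 8.13% of all genes tested. Without library 2 of Ifnar +/-, +/+, edgeR called 36 more negative and 2 more positive. That same fit called 5592 of all 17848 genes tested, 3179 of them more negative. Without library 1 of Ifnar +/-, ITD/+ edgeR called 8 of the list more negative, and without library 1 of Ifnar -/-, ITD/+ it called 1. Each fit without 1 other library called none. With only library 2 kept in Ifnar +/-, +/+, the list's median difference was -1.03, against -1.36 with all libraries. Irf7 averaged 382 CPM in ITD/+ and 81.4 CPM in +/+ libraries of the Ifnar +/- groups, and its difference of effects was -2.55 (unadjusted p = 4.22e-05, edgeR adjusted p = 0.0771). Ifitm1 and Slfn2 rose in both backgrounds, by 2.92 and 3.23 on the log2 scale in Ifnar -/- and by 1.98 each in Ifnar +/-, and the difference was not called for either (edgeR adjusted p = 0.0913 and 0.0882). Cd48 differed by 1.34 in Ifnar -/- and by 0.35 in Ifnar +/-, and the difference of 0.99 was not called over all genes (unadjusted p = 0.000237, edgeR adjusted p = 0.0872).

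**Figure D5:**
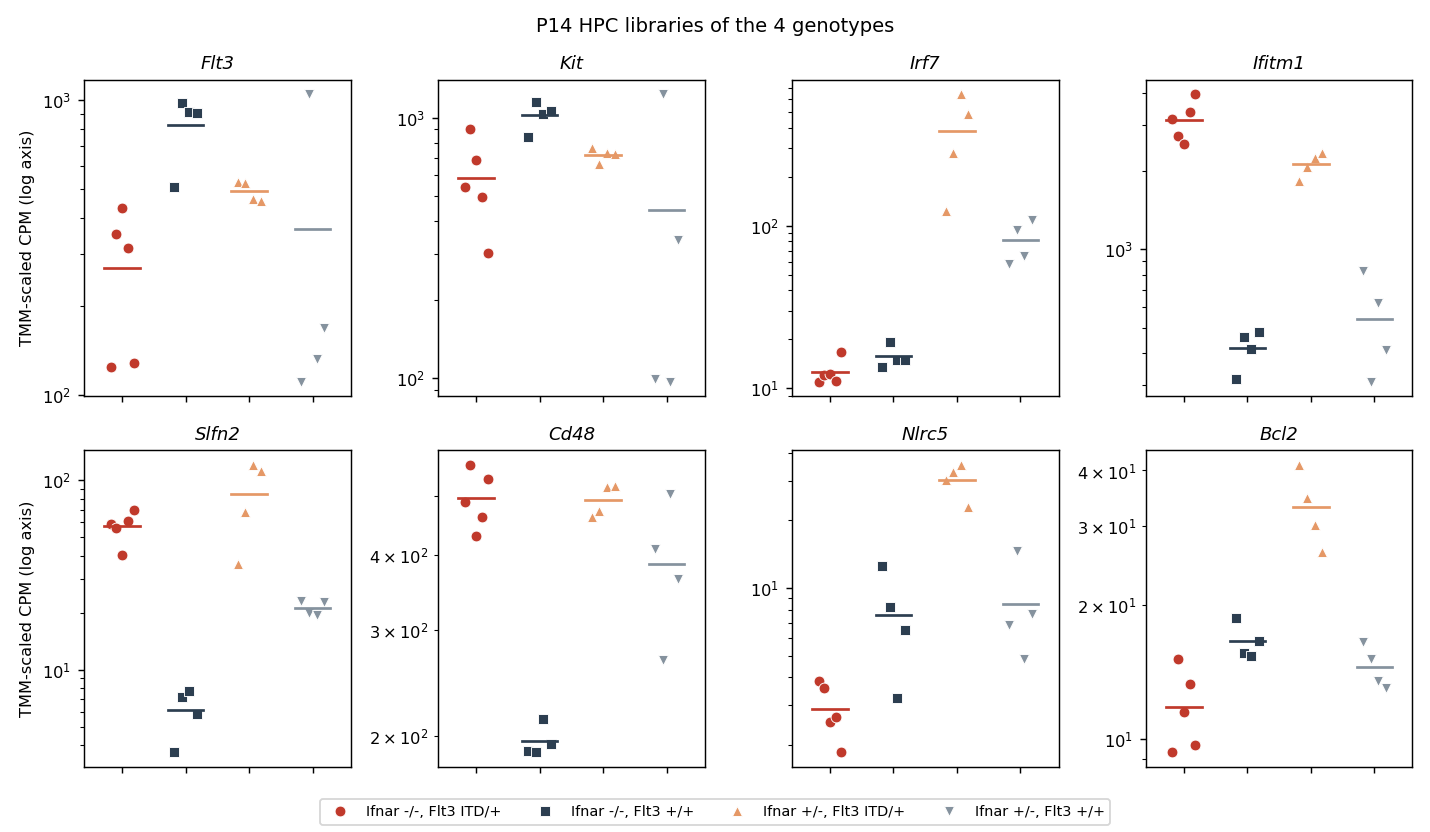
TMM-scaled CPM of 8 genes per library (points, log axes that differ between panels) with group means (bars) in P14 HPC of the 4 labelled genotypes. Irf7 and Nlrc5 are highest in the Ifnar +/-, ITD/+ libraries, whereas Ifitm1 and Slfn2 are higher in ITD/+ than in +/+ libraries of both backgrounds; Flt3 and Kit show 3 low libraries in Ifnar +/-, +/+.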

How the data were processed

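RNA-seq libraries of mouse HPC were made with a Qiagen micro plus RNA kit and a Clontech kit, per the labels' protocols. Per the submitters' processing notes, the authors used STAR (listed there as 3.0.4) and Subread's featureCounts 1.4.5. Build, annotation and strand setting were not given in the sources. The authors deposited raw read counts per gene, for 40481 genes in 34 columns, and no normalized value was used.

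The 17 P14 HPC libraries were fitted together in edgeR 4.0.16 and tested by its quasi-likelihood F-test (R 4.3.3, TMM factors, filterByExpr by group, 13 residual degrees of freedom, two-sided). P-values were adjusted by Benjamini and Hochberg over all genes tested, and a gene was called under 0.05. The script was tested on simulated counts. SE is the log2 fold change over the root of F. DESeq2 1.42.0 was an alternative. Intervals and floors from reads would cover counting error only.

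The rule named Ifnar1, Ifnar2 and Flt3, the 15 called genes per direction with the largest change (mean log2 CPM of at least 3, no overlap, no predicted symbol), up to 4 called members per list, every tested member of the STAT5 list, and the 5 genes per direction of smallest adjusted p in the interaction, where Bcl2 alone qualified. Other genes were chosen after their values were seen: Nlrc5, Kit, Cd34, Igkc, Mpo, Irf7, Isg15, Ifit1, Hlf, Slamf1, Spry1, Spry2, Spred1, the other uncalled MAPK members, marker genes of other cells (Nkg7 and Cd4 among them) and those of the closing section. The 40 gene lists and the members were chosen with earlier results of these data known.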

Additional observations from a re-analysis of the deposited data

Results flagged for a closer look

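Of 166 groups of 4 or 5 libraries looked at, 13 held a library whose gap to its nearest neighbour took up an unusually large share of the group's range in log2 CPM (log2 reads for the total); chance gives about 1 in 20. In the Ifnar -/-, ITD/+ group, library 5 stood apart for Chil5 (0.837 of the range), Irf7 (0.755) and the eosinophil gene Prg2 (0.924). In the Ifnar -/-, +/+ group, library 1 stood apart for Flt3 (0.882), Mboat2 (0.966), Hoxb7 (1), Pim1 (0.958), Ccnd3 (0.969), Il2ra (0.849) and Cd34 (0.845). In the same group, library 2 stood apart for Dusp5 (0.87) and for its read total (0.929), and library 4 for Ikzf4 (0.94). Prg2 had 186 CPM in ITD/+ library 5 and at most 0.774 CPM in the other ITD/+ libraries, and 1650 and 393 CPM in +/+ libraries 1 and 2 and at most 1.42 CPM in the others.

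The ITD effect differed between Ifnar -/- and Ifnar +/- by edgeR's interaction test for Bcl2 (-1.67 on the log2 scale) and Nlrc5 (-3.22).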

How the results depend on the processing

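The 168 calls of the ITD contrast in Ifnar -/- became 419 with DESeq2 (all 168 among them), 295 when the 9 libraries were fitted alone (161 shared), 107 without ITD/+ libraries 1 and 5 (98 shared), 104 in libraries with Y-linked reads (94 shared), and 122 to 152 without 1 library. The replicate numbers are shared by the groups, and the labels do not say whether they pair the libraries. Same-numbered deviations from the group means correlated at 0.178, 0.041, 0.0286 and 0.00824, and those of unlike numbers between -0.101 and 0.0504. A fit with the replicate block gave 141 calls (123 shared). In Ifnar +/-, the 846 calls became 2704 with DESeq2, 1524 with the replicate block, and 264 to 5804 without 1 library. The 2 interaction calls became 12 without the filter on low counts, 2534 with DESeq2, 0 with the replicate block, 0 with the Y-linked level as a covariate, 0 without libraries 1, 3 and 4 of Ifnar +/-, +/+, and 0 to 5592 without 1 library. The cause was not tested. Fits without libraries chosen by how they stood apart were added after the data were seen. Of 60 named genes 45 were called, and 27 of these stayed called under every alternative run. Rasgrp3 lost its call in libraries with Y-linked reads, Osgin1 without ITD/+ libraries 4 and 5 or 1 and 5, and Epb41l3 without 4 and 5. Small log2 fold changes turned sign. Pim3 was -0.1 without ITD/+ libraries 4 and 5. Bcl2l1 was 0.04 with the replicate block, 0.18 without ITD/+ libraries 1 and 5, and -0.13 to 0.08 without 1 library. Ccnd2 ran from -0.22 to 0.03 and Ccnd3 from -0.17 to 0.07 without 1 library.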

Other observations

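Several genes outside the naming rule were picked after their values were seen. Prnp, the prion protein gene, had 14.4, 15.1, 18.2, 28.5 and 29.9 CPM in ITD/+ libraries and 1.98, 2.57, 2.45 and 2.16 CPM in +/+ libraries (log2 fold change 3.21 ± 0.28, edgeR adjusted p = 4.44e-06). Itgb5, an integrin chain, had 9.64, 9.18, 7.04, 7.27 and 8.37 CPM in ITD/+ libraries and 1.67, 2.05, 1.94 and 1.7 CPM in +/+ libraries (log2 fold change 2.17 ± 0.19, edgeR adjusted p = 4.68e-06). S1pr3, a sphingosine 1-phosphate receptor, had 14.9, 39.6, 22.2, 12.9 and 10.7 CPM in ITD/+ libraries and 2.87, 2.69, 3.33 and 2.27 CPM in +/+ libraries (edgeR adjusted p = 0.00115). Ikzf4, an Ikaros family factor, ran from 7.71 to 12.6 CPM in ITD/+ and from 0.333 to 1.76 CPM in +/+ libraries (edgeR adjusted p = 0.000608). Ly6d, a surface marker of early lymphoid cells, ran from 9.75 to 14.7 CPM in ITD/+ and from 0.469 to 2.53 CPM in +/+ libraries (edgeR adjusted p = 0.000761). Ccn3, a matrix-associated growth regulator, had 10.2, 8.95, 13, 19.7 and 13.2 CPM in ITD/+ libraries and 0.0446, 0, 0 and 0.166 CPM in +/+ libraries (edgeR adjusted p = 2.24e-05).

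Serpina3f had relatives that also rose: Serpina3g averaged 966 CPM in ITD/+ and 323 CPM in +/+ libraries (edgeR adjusted p = 9.39e-06), Serpina3h 2.82 and 1.02 CPM (0.00219), and Serpina3n 1.73 and 0.46 CPM (0.000752). Reads of these near-identical genes can be split between them.

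Among fallers, St8sia1, a ganglioside synthase, had 0.442, 0.689, 0.317, 0.869 and 0.97 CPM in ITD/+ libraries and 8.21, 11.3, 8.82 and 13.8 CPM in +/+ libraries (log2 fold change -4.01 ± 0.34, edgeR adjusted p = 3.88e-06). Parm1 averaged 4.06 CPM in ITD/+ and 16.8 CPM in +/+ libraries (edgeR adjusted p = 0.00053). Cd33, a lectin of myeloid cells, ran from 9.01 to 12.8 CPM in ITD/+ and from 20.2 to 31 CPM in +/+ libraries (edgeR adjusted p = 0.00104). Cfp, the complement factor properdin, averaged 46.4 CPM in ITD/+ and 98.3 CPM in +/+ libraries (edgeR adjusted p = 0.00407). The eosinophil granule gene Epx had 0.0276, 0.269, 0, 0 and 10.6 CPM in ITD/+ libraries and 450, 154, 0.0131 and 0.0139 CPM in +/+ libraries.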
